A study of Homo sapiens with 6 samples.

Results

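FOS, FOSB, FOSL1, FOSL2, JUN, JUNB, JUND and ATF3 encode subunits of the transcription factor AP-1, and EGR1 and EGR3 encode zinc finger transcription factors of the early growth response family. Their transcripts were followed on 6 Affymetrix arrays of SAS, an established line of human oral squamous carcinoma cells. The genes were taken by symbol from the platform annotation, which gave 24 of 54675 probe sets and 10 of 19775 genes. Of these probe sets, 23 passed a filter on low signals, and all 10 genes had at least 1 that passed. The cells had been transfected with a control siRNA (siCtrl) or with an siRNA against CYLD (siCYLD) and later spent 48 h in medium without serum. DMSO was present during that time in the untreated groups, which have 2 arrays for siCtrl and 2 for siCYLD. In the remaining groups, with 1 array for each siRNA, an inhibitor replaced it that acts on ALK5, a type I receptor for TGF-β. All 6 arrays thus share the cell line, the transfection, and the serum-free medium. The inhibitor compound and its dose are not given in the sources used here, and the titles name 1 siRNA against CYLD and no rescue, so effects of that siRNA on other transcripts cannot be told apart from those of losing CYLD.

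AP-1 is a dimer of basic leucine zipper proteins. A Fos family protein pairs with a Jun family protein, while Jun proteins and ATF3 can also form other dimers, and the dimer binds AP-1 or cAMP response elements. FOS, FOSB, JUNB, ATF3, EGR1 and EGR3 are immediate early genes, switched on within minutes of growth factor, stress or cytokine signals by MAP kinases, serum response factor and its partners. CYLD is a deubiquitinase that restrains NF-κB and JNK signalling, and JNK phosphorylates JUN. TGF-β acts through SMAD proteins, which cooperate with AP-1, and also through MAP kinases.

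Levels are given as linear MAS5 signals, and differences are on a log2(signal + 16.06) scale. A gene is represented by its brightest probe set that passed the filter. It is said to have risen or fallen where limma gave an adjusted p below 0.05 (Benjamini-Hochberg over 12935 genes). On 2 arrays the title and the source name disagree about the siRNA: siCYLD replicate 1 has the control siRNA in its source name, and siCtrl replicate 2 the CYLD siRNA. Groups follow the titles, and values without both arrays are given with the results. By title, the CYLD probe set of highest mean gave 411 and 500 in untreated siCtrl cells, 278 and 230 in untreated siCYLD cells, and 349 and 176 on the siCtrl and siCYLD inhibitor arrays. Its siRNA difference was -0.80 ± 0.18 (adjusted p = 0.00882 over all probe sets, limma), and another one, with a lower mean over all arrays, had -2.21 ± 0.23 (adjusted p = 2.97e-05), from 485 and 550 to 77.2 and 125, the lowest of these being under the filter signal of 79.3. The epithelial markers CDH1, EPCAM and SFN had signals of at least 11742 on all arrays, and the basal keratin gene KRT14 had 62.3 to 148. KRT5 varied from 900 to 12525 over the arrays and DSG3 from 488 to 1262. All 6 squamous markers found on the array passed the filter. Of the markers of other cell types, 4 of 6 for fibroblasts, 2 of 3 for leukocytes and 2 of 2 for endothelium passed it too. COL1A1 (284 to 399), PDGFRB (228 to 307), CD79A (110 to 205) and PECAM1 (188 to 216) had signals above the filter on all arrays, while COL3A1, LUM and PTPRC were at or below 47.7. The part of such cells or of probe background in the results was not tested. Duplicates correlated at 0.987 (siCtrl) and 0.988 (siCYLD) over genes, and the labels do not say whether they were separate cultures, so the p-values speak only of the spread among these arrays. The ratio of 3′ to 5′ signal of the ACTB control was 3.21 to 3.67 on the 3 siCtrl arrays and 2.26 to 2.48 on the 3 siCYLD arrays. For the GAPDH control the ratio was 1.79 to 2.14 (siCtrl) and 1.80 to 1.97 (siCYLD), with overlapping ranges. The part of the ACTB gap in the siRNA differences below was not tested.

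With the CYLD siRNA, FOSL1, JUNB, EGR3, ATF3 and JUN rose, and FOS and EGR1 differed 1.16-fold and 1.06-fold from the control without a call. FOSL1, which encodes Fra-1, a Fos protein without the strong transactivation domain of FOS, read 2922 and 2739 in untreated siCtrl cells and 5308 and 5953 in untreated siCYLD cells. The duplicates lay close together and the groups did not overlap. FOSL1 rose by 0.99 ± 0.10 (log2 ± standard error, 2 arrays against 2, adjusted p = 1.22e-05, limma). In bulk RNA, here and below, a different number of expressing cells and a different amount of RNA per cell cannot be told apart.

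Among the other Fos family genes the differences were small. FOS itself, the founding member, had a signal of 1075 and 1052 with siCtrl and of 945 and 883 with siCYLD, so both siCYLD arrays were slightly lower. That difference was -0.22 ± 0.14 (adjusted p = 0.291, 0.23 to 0.642 over 18 alternatives), and its sign turned in the additive fits that draw on the inhibitor pair, with 0.28 over all 6 arrays and 0.50 without both arrays of conflicting labels. FOSL2, which encodes Fra-2, had 4957 and 4316 with siCtrl and 3820 and 4006 with siCYLD, a difference of -0.24 ± 0.10 (adjusted p = 0.107). All 5 of its probe sets were lower on average in siCYLD cells, and 2 of them were called over all 24537 probe sets, where 16.8% were called. The brighter of these gave 1572 and 1324 against 915 and 975, a difference of -0.60 ± 0.12 (adjusted p = 0.00534). FOSL2 was called with the mean of its probe sets (-0.48, adjusted p = 0.0169) and without siCtrl replicate 2 (-0.34, adjusted p = 0.0426), and its adjusted p over 18 alternatives ran from 0.0169 to 0.64. FOSB, near the floor of the array, gave 83.3 and 132 with siCtrl and 101 and 140 with siCYLD, and the groups overlapped.

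Of the 3 Jun genes, JUNB and JUN rose. JUNB, whose product can oppose or replace JUN in dimers, gave 1658 and 1663 with siCtrl and 3294 and 2966 with siCYLD, and rose by 0.91 ± 0.11 (adjusted p = 6.34e-05, limma). JUN read 6752 and 6130 against 7406 and 8650, a smaller rise of 0.31 ± 0.10 (adjusted p = 0.0414). The groups of both genes did not overlap. All 4 JUN probe sets were higher in siCYLD cells, by 0.27 to 0.57. The JUN call was weak, since it was kept in 11 of 18 alternatives (adjusted p of 0.00347 to 0.618) and lost without siCtrl replicate 2 (0.24, adjusted p = 0.162) and without siCYLD replicate 2 (0.20, adjusted p = 0.341). JUND, usually the steadily expressed Jun gene, read 16514 and 15869 against 15164 and 16229, with overlapping groups and a difference of -0.05 ± 0.08 (adjusted p = 0.735).

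ATF3, a stress-induced repressor and AP-1 partner, gave 3371 and 3092 with siCtrl and 5205 and 4979 with siCYLD, and rose by 0.65 ± 0.10 (adjusted p = 0.000339, limma). Its other 2 probe sets had differences of 1.05 ± 0.45 and 0.41 ± 0.16 and were not called, the first of them passing the filter only through the siCYLD groups. EGR3 read 896 and 836 against 1611 and 1672, a 1.88-fold difference with narrow duplicates, and rose by 0.91 ± 0.11 (adjusted p = 6.95e-05). EGR1 had no call. The EGR1 signal was 20802 and 19770 with siCtrl and 20915 and 22263 with siCYLD, a difference of 0.09 ± 0.08 (adjusted p = 0.486). Over 17 alternatives EGR1 had 0.04 to 0.43 and no call (adjusted p of 0.0885 to 0.866), with 0.23 for the mean of its probe sets, 0.32 in the additive fit and 0.43 in that fit without both arrays of conflicting labels. Of its dimmer probe sets, the dimmest rose by 0.36 ± 0.11 (adjusted p = 0.0445 over all probe sets) and the other had 0.24 ± 0.10 (adjusted p = 0.131).

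**Figure D1:**
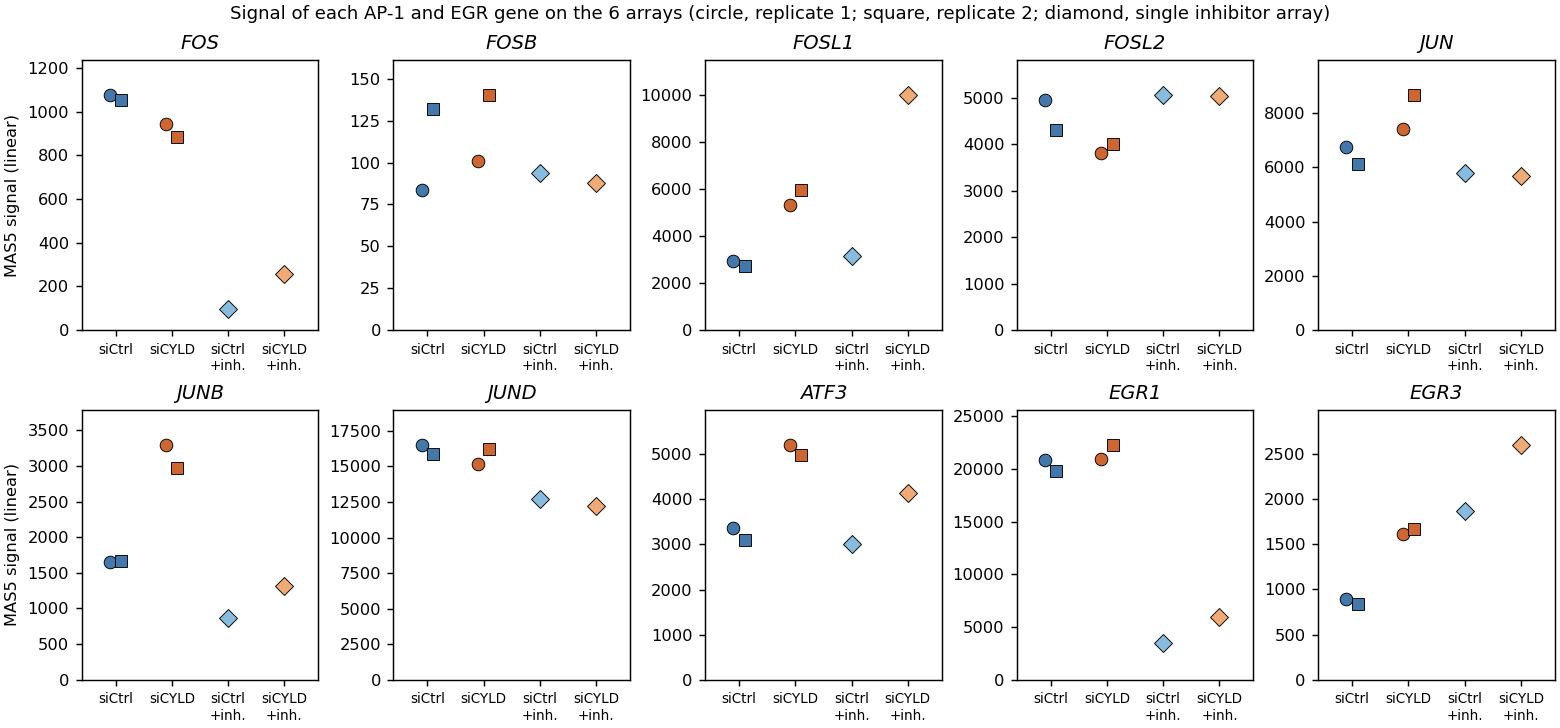
MAS5 signal on a linear axis from 0 for the probe set that represents each of the 10 genes, by group, with 1 point per array. FOS and EGR1 drop to 96.9 and 3497 on the siCtrl inhibitor array, FOSL1 reaches 9986 on the siCYLD inhibitor array, and EGR3 is above all 4 untreated arrays on both inhibitor arrays.

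In all, 5 of 10 members rose and 0 fell with the CYLD siRNA (limma), against 21.3% of all genes tested, 9.49% higher and 11.8% lower. At unadjusted p under 0.05 there were 6 (34.2% of all genes), the sixth being FOSL2, which was lower. The median difference of the 10 was 0.24, and that of all genes -0.04. Untreated groups did not overlap for 8 members, 6 with siCYLD above and 2 with siCYLD below, compared with 60.9% of all genes, 26.8% above and 34.1% below. An additive fit that left out both arrays with conflicting labels, and which also draws on the inhibitor pair, called 3 members: FOSL1 (1.34), JUNB (0.71) and EGR3 (0.68). In it ATF3 had 0.51 (adjusted p = 0.0592) and JUN 0.16 (adjusted p = 0.618). The adjusted p of ATF3 over 18 alternatives ran from 2.43e-09 to 0.0803. From the remaining pair of untreated arrays alone, siCYLD minus siCtrl, the values were FOSL1 1.02, JUNB 0.83, EGR3 0.89, ATF3 0.56 and JUN 0.36, with no test.

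**Figure D2:**
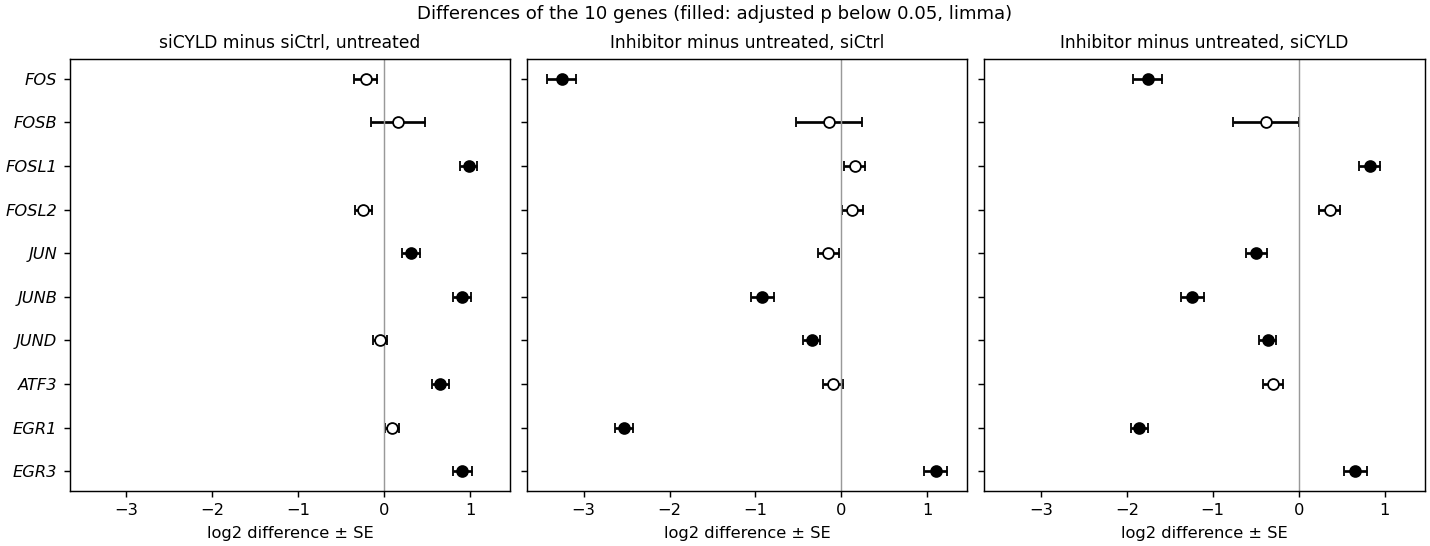
Log2 differences of the 10 genes with standard errors from limma in 3 comparisons, filled where the adjusted p is below 0.05. The left panel is 2 arrays against 2, and the other panels are 1 inhibitor array against 2 untreated arrays. FOS is at -3.26 and EGR1 at -2.53 in siCtrl cells, and EGR3 is to the right of 0 in all 3 panels.

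With the ALK5 inhibitor FOS and EGR1 had the lowest differences of the 10 genes, JUNB and JUND also fell with both siRNAs, and EGR3 rose. FOS fell to 96.9 in siCtrl cells, so that 9.11% of the untreated mean signal was left, and to 259 in siCYLD cells, with 28.3% left. These are differences of -3.26 ± 0.17 (adjusted p = 2.26e-07, limma, 1 array against 2) and -1.76 ± 0.17 (adjusted p = 1.21e-05). In siCtrl cells this was the largest fall among all 12935 genes, and in siCYLD cells FOS ranked 91 from the bottom. The signal of 96.9 is near the filter signal of 79.3. The size of the siCtrl fall thus depends on the offset, with -3.44 at an offset of 1 and -2.92 at an offset of 50. EGR1 fell to 3497 in siCtrl cells and to 5961 in siCYLD cells, which left 17.2% and 27.6% of the untreated signal. The EGR1 differences were -2.53 ± 0.10 (adjusted p = 1.66e-08) and -1.85 ± 0.10 (adjusted p = 1.91e-07), ranks 5 and 72 from the bottom. All 3 EGR1 probe sets fell, with differences from -2.94 to -2.30 in siCtrl cells and from -2.13 to -1.74 in siCYLD cells. The test takes each single inhibitor array to have the spread seen between duplicates. The comparisons within siCtrl and within siCYLD cells use the same untreated arrays as the siRNA comparison.

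The sequences just upstream of the genes that fell with the inhibitor in siCYLD cells are shown because these 5 moved the same way there. They are RefSeq sequences of GRCh38.p14, 250 bases before the annotated start, 5′ to 3′ on the strand of the gene. The table held 8 of the 10 members, without FOSL1 and EGR3. Capitals mark matches, on either strand, to the CArG box (the site of serum response factor, by name), the AP-1 site TGANTCA, the cAMP response element TGACGTCA, the related TGACATCA, the EGR site GCGNGGGCG, the SMAD palindrome GTCTAGAC and the NF-κB site (by name). The windows are chr14:75278578-75278827 (plus strand) for FOS, chr5:138465229-138465478 (plus) for EGR1, chr19:12791236-12791485 (plus) for JUNB, chr1:58784048-58784297 (minus) for JUN and chr19:18281623-18281872 (minus) for JUND.
FOS: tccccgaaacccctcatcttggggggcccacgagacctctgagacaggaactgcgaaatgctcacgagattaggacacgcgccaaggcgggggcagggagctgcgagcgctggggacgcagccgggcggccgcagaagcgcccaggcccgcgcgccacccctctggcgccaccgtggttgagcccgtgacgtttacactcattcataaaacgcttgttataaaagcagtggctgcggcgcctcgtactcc
EGR1: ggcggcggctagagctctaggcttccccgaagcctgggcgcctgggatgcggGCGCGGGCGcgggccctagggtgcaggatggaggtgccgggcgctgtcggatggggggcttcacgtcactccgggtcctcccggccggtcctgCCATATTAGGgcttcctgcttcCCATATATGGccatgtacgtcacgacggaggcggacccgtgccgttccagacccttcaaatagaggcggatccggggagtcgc
JUNB: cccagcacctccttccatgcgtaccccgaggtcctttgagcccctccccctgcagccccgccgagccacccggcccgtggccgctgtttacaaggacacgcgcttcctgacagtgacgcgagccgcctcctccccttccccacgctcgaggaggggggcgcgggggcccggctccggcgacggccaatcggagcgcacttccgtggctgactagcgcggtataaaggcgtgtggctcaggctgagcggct
JUN: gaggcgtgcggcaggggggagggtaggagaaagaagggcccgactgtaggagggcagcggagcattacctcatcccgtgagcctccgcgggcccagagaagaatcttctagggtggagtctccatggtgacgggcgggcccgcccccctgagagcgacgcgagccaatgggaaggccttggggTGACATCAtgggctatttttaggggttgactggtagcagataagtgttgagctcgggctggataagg
JUND: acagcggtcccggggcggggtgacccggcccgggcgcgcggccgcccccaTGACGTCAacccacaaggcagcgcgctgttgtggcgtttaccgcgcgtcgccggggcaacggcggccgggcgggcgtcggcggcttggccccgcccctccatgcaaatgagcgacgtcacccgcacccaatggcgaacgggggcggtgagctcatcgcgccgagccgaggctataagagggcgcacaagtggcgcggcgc

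EGR1 holds 2 CArG boxes, CCATATTAGG from -105 to -96 and CCATATATGG from -83 to -74 relative to the start, and an EGR site from -198 to -190. Of 35116 RefSeq promoter windows, each from 250 bases before the start to 50 after it, 1.29% hold a CArG box and 9.43% an EGR site. JUN holds TGACATCA from -67 to -60, as ATF3 does from -123 to -116, and 2.61% of all windows hold it. JUND holds a cAMP response element from -200 to -193, found in 1.85% of windows. FOSL2 has an AP-1 site from 5 to 11 after its start, a motif in 7.71% of windows. The FOS, FOSB and JUNB windows hold none of these motifs, and no member's window holds the SMAD palindrome (0.202% of windows) or the NF-κB site (11.3%). Bases further upstream than 250 before the start were not searched, and near matches were not counted. A window without a motif thus does not mean that the gene lacks one. A match is a description of the letters and not of binding.

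Of the Jun genes, JUNB and JUND fell with the inhibitor in both siRNA groups and JUN in siCYLD cells. JUNB read 868 in siCtrl and 1314 in siCYLD inhibitor cells, below all 4 untreated arrays, with differences of -0.92 ± 0.13 (adjusted p = 0.00102, limma) and -1.24 ± 0.13 (adjusted p = 3.57e-05). The fall brought JUNB in siCYLD cells to 42% of its untreated signal. JUND read 12726 and 12198, also below all untreated arrays, and fell, with differences of -0.35 ± 0.10 (adjusted p = 0.0462) and -0.36 ± 0.10 (adjusted p = 0.02). JUN read 5790 and 5678, fell by 0.49 ± 0.12 in siCYLD cells (adjusted p = 0.0123), and had -0.15 ± 0.12 in siCtrl cells (adjusted p = 0.495).

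**Figure D3:**
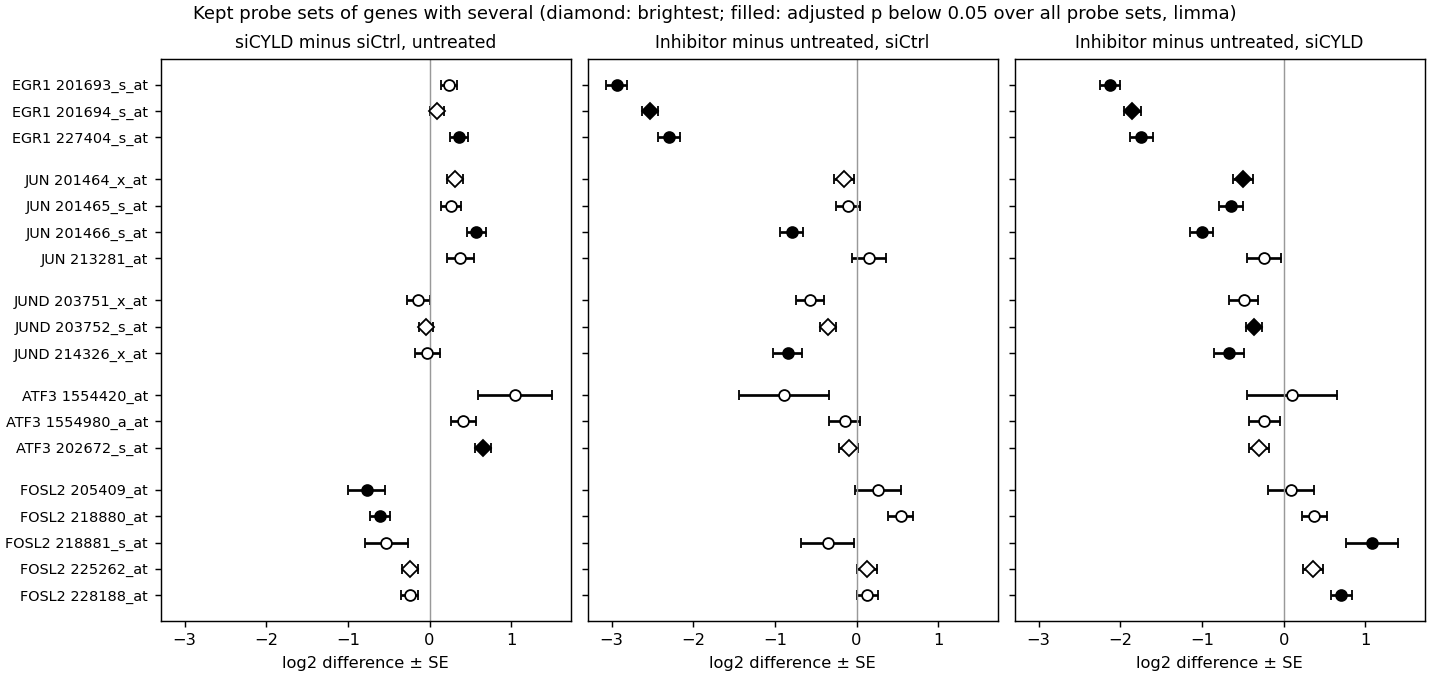
Log2 differences with standard errors for each kept probe set of the 5 genes that have several, from limma fits over all 24537 kept probe sets. Diamonds are the probe sets that represent the gene. The 3 EGR1 probe sets lie together, while the JUN probe sets spread in siCtrl cells from -0.79 to 0.15.

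Of the 4 JUN probe sets, 1 fell in siCtrl cells and 3 in siCYLD cells. One of them gave 1668 and 1499 in untreated siCtrl cells and 905 with the inhibitor, and fell by 0.79 ± 0.14 (adjusted p = 0.00711 over all probe sets, of which 6.04% were called in siCtrl cells). In siCYLD cells it read 2225 and 2496 without and 1166 with the inhibitor. The other 3 JUN probe sets had siCtrl differences of -0.15, -0.11 and 0.15 and were not called there. The dimmest gave 298 and 306 in untreated siCtrl cells and 336 with the inhibitor, and had no call in siCYLD cells either (-0.24 ± 0.21). The kept JUND probe sets shared their direction, at -0.35, -0.57 and -0.85 in siCtrl cells. Over all probe sets only the last was called there (adjusted p of 0.0622, 0.0784 and 0.018, limma). In siCYLD cells 2 of these 3 were called. The 1 that missed the filter had -0.16 in siCtrl and 0.15 in siCYLD cells, with signals of 45.8 to 75.8 over the arrays.

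EGR3, FOSL1 and FOSL2 were on the other side. EGR3 read 1869 with the inhibitor in siCtrl cells and 2602 in siCYLD cells, above all 4 untreated arrays, and rose by 1.10 ± 0.14 (adjusted p = 0.000377, limma) and by 0.66 ± 0.14 (adjusted p = 0.00412). EGR1 and EGR3 thus differed in sign under the inhibitor with both siRNAs. FOSL1 read 3154 in siCtrl inhibitor cells, a difference of 0.16 ± 0.12 (adjusted p = 0.469), and 9986 in siCYLD inhibitor cells, the highest of the 6 arrays, a rise of 0.83 ± 0.12 (adjusted p = 0.000382). FOSL2 read 5054 and 5031, just above the untreated arrays, and its differences of 0.13 ± 0.12 and 0.36 ± 0.12 were not called (adjusted p of 0.572 and 0.0503). Of its other probe sets, 2 were called higher in siCYLD cells, at 0.71 ± 0.13 (adjusted p = 0.00322) and 1.08 ± 0.32 (adjusted p = 0.0386), where 16.4% of all probe sets were called, and 1 across both siRNAs, at 0.46 ± 0.12 (adjusted p = 0.0233), where 15.2% were. In siCYLD cells, 8 of 15 alternatives called FOSL2, those without siCtrl replicate 1 (adjusted p = 0.0225) or 2 (0.0221) among them, within a range of 0.0126 to 0.196. ATF3, at 3016 and 4133, and FOSB, at 93.7 and 87.7, had no call with either siRNA.

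With the inhibitor, 1 member rose and 4 fell in siCtrl cells, compared with 9.36% of all genes called, 5.02% higher and 4.34% lower. In siCYLD cells 2 rose and 5 fell, compared with 22.4% of all genes, 12.2% higher and 10.2% lower. The median of the 10 differences was -0.15 in siCtrl and -0.37 in siCYLD cells, with all genes at -0.0022 and 0.016. At unadjusted p under 0.05 there were 5 in siCtrl cells (24.3% of all genes) and 9 in siCYLD cells (35%). Across both siRNAs in an additive fit, 2 inhibitor arrays against 4, 2 rose and 4 fell where 20% of all genes were called, 11.2% higher and 8.82% lower, and 8 had an unadjusted p under 0.05 (34.1% of all genes). The genes that fell had differences of -2.51 ± 0.26 (FOS), -2.19 ± 0.13 (EGR1), -1.08 ± 0.11 (JUNB) and -0.35 ± 0.08 (JUND), while EGR3 rose by 0.88 ± 0.12 and FOSL1 by 0.49 ± 0.14. The inhibitor arrays lay below all untreated arrays for FOS, JUN, JUNB, JUND and EGR1 and above them for FOSL2 and EGR3. Over all genes 30.1% were apart in this way, 14.4% below and 15.7% above.

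Calls of the smaller inhibitor differences were lost under some settings. FOSL1 across both siRNAs was called in 9 of 17 alternatives (adjusted p of 0.000332 to 0.477) and lost without siCYLD replicate 1 (0.41, adjusted p = 0.0872), without siCtrl replicate 2 (0.52, adjusted p = 0.0532), without siCYLD replicate 2 (0.48, adjusted p = 0.0705) and without the siCYLD inhibitor array (0.16, adjusted p = 0.477). JUND lost its siCtrl call without siCtrl replicate 1 (-0.32, adjusted p = 0.105) and its siCYLD call without siCYLD replicate 2 (-0.31, adjusted p = 0.104). JUN lost its siCYLD call without siCYLD replicate 2 (-0.38, adjusted p = 0.0662), and its difference across both siRNAs (-0.32, adjusted p = 0.0579) was called without the siCtrl inhibitor array (-0.49, adjusted p = 0.0118, range 0.0118 to 0.884). Over all alternatives the adjusted p ran from 0.00357 to 0.257 for JUND in siCtrl cells, from 0.00109 to 0.161 for JUND in siCYLD cells and from 0.000102 to 0.477 for JUN in siCYLD cells. Without the intensity trend in limma, JUNB and EGR3 also lost their siCtrl calls (adjusted p of 0.0807 and 0.0647) and EGR3 its siCYLD call (adjusted p = 0.0555). FOS and EGR1 were called with the inhibitor in every alternative that could be fitted, in either siRNA and across both. Leaving out the pair of arrays whose labels conflict, the additive fit gave FOS -2.49, EGR1 -2.23, JUNB -1.04 and EGR3 0.84, all called, and JUND -0.39 and FOSL1 0.43, not called (adjusted p of 0.104 and 0.133). Over 16 alternatives the adjusted p of JUND across both siRNAs ran from 0.00438 to 0.104. Against the lone remaining untreated array of each siRNA, FOS differed by -3.27 in siCtrl and -1.71 in siCYLD cells and EGR1 by -2.57 and -1.90.

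The fall of FOS and EGR1 was smaller in siCYLD than in siCtrl cells. The FOS difference with the inhibitor was 1.50 ± 0.24 higher in siCYLD cells (interaction, adjusted p = 0.00585, limma) and that of EGR1 was 0.68 ± 0.14 higher (adjusted p = 0.0325). These were 2 of 10 members, both higher, and 1.67% of all genes had a called interaction, 0.982% higher and 0.688% lower. At unadjusted p under 0.05 there were 4 members (13.7% of all genes), the others being FOSL1 (0.67 ± 0.17, adjusted p = 0.0778) and EGR3 (-0.44 ± 0.19, adjusted p = 0.337). The EGR1 interaction was not called in the fit over probe sets (adjusted p = 0.052), where its other 2 had 0.81 and 0.55 (adjusted p of 0.0565 and 0.261). The FOS interaction was 1.63 with an offset of 1 and 1.28 with an offset of 50. Both calls rest on 1 inhibitor array per siRNA, and that of FOS on a siCtrl signal of 96.9, near the filter signal of 79.3. They were lost with no filter on low signals and without the intensity trend, that of EGR1 also with the mean of its probe sets, and over alternatives the adjusted p ran from 1.63e-06 to 0.152 for FOS and from 9.62e-05 to 0.33 for EGR1. FOSL1 was called without siCtrl replicate 2 (0.72, adjusted p = 0.038) and without siCYLD replicate 2 (0.75, adjusted p = 0.024), within a range from 0.00358 to 0.363.

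Between the 2 inhibitor arrays, siCYLD minus siCtrl, FOSL1 differed by 1.66 and FOS by 1.28, which are signals of 9986 against 3154 and 259 against 96.9. EGR1 differed by 0.77, JUNB by 0.59, EGR3 by 0.47 and ATF3 by 0.45. FOSL2, JUN, JUND and FOSB lay between -0.08 and -0.0066. These 2 members, both higher, differed at least 2-fold, as 6.73% of all genes did (3.91% higher and 2.81% lower), in this pair, which has 1 array on each side and no test. The FOS signal was thus 2.67-fold higher with the CYLD siRNA among inhibitor arrays, the lower signal being near the filter signal of 79.3.

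**Figure D4:**
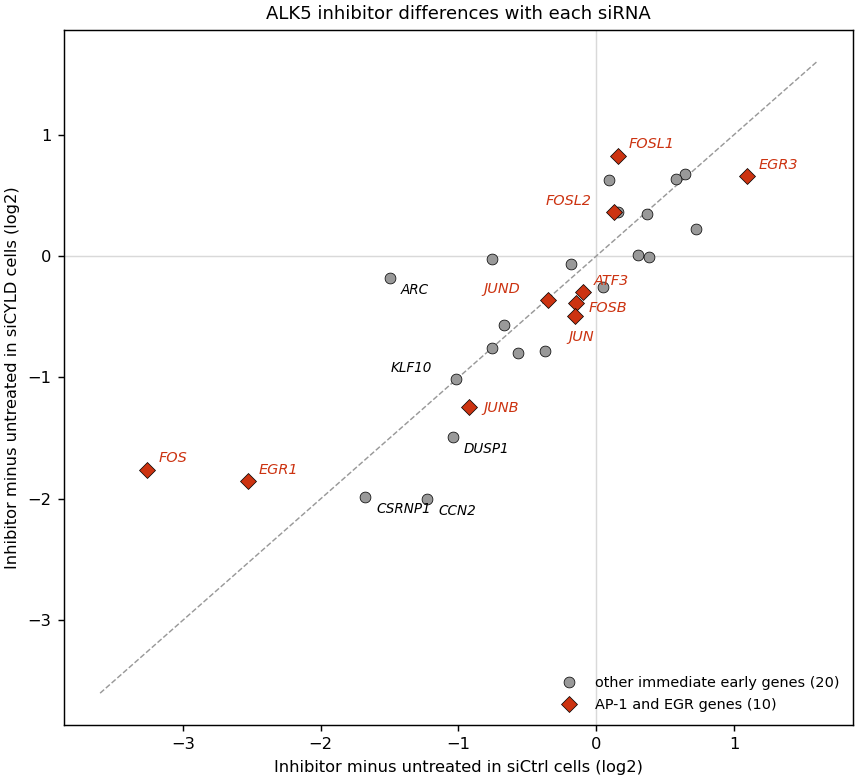
Log2 difference with the ALK5 inhibitor in siCtrl cells (x axis) and siCYLD cells (y axis), 1 array against 2 on each axis, for the 10 AP-1 and EGR genes and the 20 tested genes of the immediate early list. The dashed line marks equal differences. FOS (-3.26 and -1.76) and EGR1 (-2.53 and -1.85) lie above the line at the far left, and ARC (-1.50 and -0.18) lies far above it.

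Other immediate early genes moved in both directions with the inhibitor. The lists in this and the next paragraphs were chosen with earlier results of these data known. Of 20 such genes tested, 4 rose and 8 fell in siCtrl cells and 3 rose and 7 fell in siCYLD cells, with medians of -0.28 and -0.12. Over all genes 9.36% were called in siCtrl cells (5.02% higher and 4.34% lower) and 22.4% in siCYLD cells (12.2% and 10.2%). CSRNP1, a nuclear protein gene induced by growth signals, read 751 and 713 in untreated siCtrl cells and 218 with the inhibitor, and 955 and 1001 against 236 in siCYLD cells. It fell, with differences of -1.68 ± 0.17 and -1.98 ± 0.17. DUSP1, which encodes a phosphatase of MAP kinases, fell too (-1.04 ± 0.11 and -1.49 ± 0.11), as did KLF10, a TGF-β-induced factor gene (-1.02 ± 0.13 and -1.01 ± 0.13). CCN2, which encodes the matricellular protein CTGF, fell in siCtrl cells (-1.22 ± 0.18) and in siCYLD cells, there from 620 and 607 to 141. ARC fell by 1.50 ± 0.21 in siCtrl cells, from 266 and 276 to 85.8, and had -0.18 ± 0.21 in siCYLD cells, where it read 538 and 480 without and 447 with the inhibitor. Its interaction was 1.32 ± 0.29 (adjusted p = 0.0403, limma), the only one called among the 20, where 7 were below an unadjusted p of 0.05.

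With the CYLD siRNA, 10 of these 20 genes rose and 0 fell (limma), 13 at unadjusted p under 0.05, with a median of 0.25. Over all genes 21.3% were called, 9.49% higher and 11.8% lower, and 34.2% had an unadjusted p under 0.05. For this and the following lists the shares over all genes are these and those given for the inhibitor. KLF10 rose by 1.03 ± 0.10, IER3, a survival gene, by 1.03 ± 0.09, TRIB1, a pseudokinase gene, by 0.95 ± 0.11 and ARC by 0.87 ± 0.17. KLF10 gave 1763 and 1792 with siCtrl and 3720 and 3592 with siCYLD.

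Genes closest to FOS and EGR1 over the 6 arrays were sought by the Euclidean distance of centred log2 profiles. The nearest gene to FOS was EGR1 (distance 0.61), followed by LCN2 (0.97), SLC25A45 (0.98), EXOSC6 (0.997) and OLMALINC (1.21). The nearest to EGR1 were EXOSC6 (0.54), LCN2 (0.59), FOS (0.61), CSRNP1 (0.70) and OLMALINC (0.71). LCN2, which encodes the secreted protein lipocalin, gave 2483 and 2864 with siCtrl, 2479 and 2240 with siCYLD, and 580 and 828 on the inhibitor arrays. These are likenesses over 6 arrays, chosen as the closest of all genes, with no test.

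Of 8 tested AP-1 partners and related bZIP factors, 2 rose and 1 fell with the CYLD siRNA, and 0 were called with the inhibitor in siCtrl cells (limma, 3 at unadjusted p under 0.05) and 1 in siCYLD cells. Over all genes 21.3%, 9.36% and 22.4% were called in these comparisons, so the counts are no result about this list. JDP2, which encodes a repressor that dimerises with Jun proteins, fell by 1.56 ± 0.14 with the CYLD siRNA, from 1862 and 1501 to 518 and 599. It read 1179 and 417 in the siCtrl and siCYLD inhibitor arrays. CREB5 and MAFF rose by 0.58 and 0.48, and ATF2, a JUN partner gene, fell with the inhibitor in siCYLD cells by 0.97 ± 0.23.

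NAB2, which encodes a corepressor of EGR proteins and is itself an EGR target gene, read 1999 and 1859 in untreated siCtrl cells and 1194 with the inhibitor. It fell in both, with differences of -0.68 ± 0.16 in siCtrl (adjusted p = 0.0193, limma) and -0.59 ± 0.16 in siCYLD cells (adjusted p = 0.0192), while NAB1 fell in siCYLD cells by 0.64. EGR4, NAB1 and NAB2 had no call with the CYLD siRNA (0 of 3, limma, 0 at unadjusted p under 0.05).

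Of 7 serum response and ternary complex factors, 2 rose with the CYLD siRNA, and 1 and 2 fell with the inhibitor in siCtrl and siCYLD cells. ELK3, which encodes a ternary complex factor that represses in its resting state, rose by 0.76 ± 0.09 and fell with the inhibitor (-0.57 ± 0.11 and -0.84 ± 0.11). SRF itself was not called, with 0.09 for the siRNA and 0.37 and 0.34 for the inhibitor. Of 18 MAP kinases and their kinases, 2 rose and 3 fell with the CYLD siRNA. With the inhibitor 1 was called in siCtrl and 2 in siCYLD cells. Over all genes 21.3%, 9.36% and 22.4% were called in these comparisons, so the counts of both lists are no result about them. RPS6KA5, which encodes the MAP kinase-activated kinase MSK1, fell by 0.86 ± 0.14 with the CYLD siRNA, from 621 and 608 to 305 and 359, and rose by 1.48 ± 0.17 with the inhibitor in siCYLD cells, to 952.

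Of 16 tested genes known as AP-1 targets, 11 rose and 1 fell with the CYLD siRNA, where 9.49% of all genes rose and 11.8% fell. Of the 11, MMP1, MMP10 and CXCL8 passed the filter only through the siCYLD groups, where they are high, and so had to differ, which leaves 8. The gelatinase gene MMP9 rose by 2.75 ± 0.18, from 140 and 137 to 1004 and 1044, and the urokinase gene PLAU by 1.47 ± 0.09, from 6865 and 6225 to 19054 and 17200. The chemokine gene CXCL8 gave 60.2 and 38.1 with siCtrl, under the filter signal, and 277 and 209 with siCYLD. The collagenase gene MMP1 gave 1.23 and 22.0 with siCtrl, also under it, and 175 and 139 with siCYLD. With the inhibitor 4 rose and 3 fell in siCtrl cells and 6 rose and 3 fell in siCYLD cells. Over all genes 5.02% rose and 4.34% fell in siCtrl cells, and 12.2% rose and 10.2% fell in siCYLD cells. The siCYLD rises include MMP1 and MMP10, which passed the filter only through the siCYLD groups. The siCtrl rises include MMP10, from 5.31 and 2.38 to 49.9, all under the filter signal. In siCYLD cells MMP1 rose by 2.81 ± 0.50 and MMP10 by 2.78 ± 0.47, whereas MMP9 (-2.85 ± 0.22) and IL11 (-2.77 ± 0.20) fell. MMP1 read 1187 on the siCYLD inhibitor array and 175 and 139 on the untreated siCYLD arrays, while MMP9 read 128 on that inhibitor array. IL6 rose in siCYLD cells by 1.04 ± 0.16, from 835 and 725 to 1612, and had -0.0033 in siCtrl cells.

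Of 10 genes known as EGR1 targets, NAB2 among them, 6 rose and 2 fell with the CYLD siRNA, with a median of 0.78, and EGR1 itself had no call there. With the inhibitor, 1 rose and 5 fell in siCtrl cells and 2 rose and 6 fell in siCYLD cells. The ligand gene TGFB1 read 1045 and 1034 in untreated siCtrl cells and 425 with the inhibitor, and fell with both siRNAs (-1.26 ± 0.14 and -0.91 ± 0.14). CDKN1A, a cell cycle inhibitor gene, fell (-0.73 ± 0.11 and -1.67 ± 0.11), as did the growth factor gene FGF2 (-0.50 ± 0.11 and -1.46 ± 0.11). ICAM1, an NF-κB target as well, rose by 1.58 ± 0.12 with the CYLD siRNA. The interaction called 1 of the 10 genes higher and 2 lower, where it called 0.982% of all genes higher and 0.688% lower. The inhibitor difference of ICAM1 was 1.04 ± 0.21 higher in siCYLD than in siCtrl cells (adjusted p = 0.0274, limma). Those of FGF2 (-0.97 ± 0.15, adjusted p = 0.00605) and CDKN1A (-0.94 ± 0.16, adjusted p = 0.00949) were lower there, opposite in sign to the EGR1 interaction. As a check of the inhibitor, the TGF-β feedback genes SKIL (-1.42 in siCtrl and -1.86 in siCYLD cells) and PMEPA1 (-1.20 and -3.80) fell with both siRNAs. SMAD7 fell in siCYLD cells (-1.49) and had -0.11 in siCtrl cells. With the CYLD siRNA all 3 rose, PMEPA1 by 3.68, SMAD7 by 0.80 and SKIL by 0.63.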

How the data were processed

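RNA of the 6 samples was labelled and hybridised to Affymetrix arrays, per the labels' protocols. Each deposited value is the linear intensity of a probe set, computed by the authors with MAS5 per the submitters' processing notes (version not given in the sources used here). Every array had a mean of 500.1 after trimming 2% at each end. Scanner files were not used here, so the background correction could not be varied. The precision is limited by the number of arrays.

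An offset of 16.06 (percentile 20 of the deposited values) was added before log2, which understates changes of dim genes. A probe set with 1 gene symbol was kept if its highest group mean was above a signal of 79.3, the median. limma 3.58.1 (R 4.3.3) with an intensity trend was fitted to 4 group means (2 residual and 10.9 prior degrees of freedom) or to siRNA plus inhibitor (3 and 7.98), and was checked on simulated data. The alternatives changed the offset, filter, normalization, probe set rule, trend, moderation, block or arrays. Named genes were the 10 members, CYLD, up to 4 called genes of largest difference per list and comparison, and the 5 genes nearest to FOS and EGR1. SRF, EGR4, the siCtrl values of KLF10, SMAD7 and FGF2, PLAU with the siRNA and the separate IL6 differences were added after their values were seen. Members and lists were chosen with earlier results of these data known. Some listed genes were not analysed here.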

Additional observations from a re-analysis of the deposited data

Results flagged for a closer look

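For 2 of the 10 genes the inhibitor difference differed between the siRNAs by the interaction test in limma. For FOS the difference in siCYLD cells minus that in siCtrl cells was 1.50 on the log2 scale (adjusted p = 0.00585), with signals of 259 and 96.9 on the inhibitor arrays. For EGR1 it was 0.68 (adjusted p = 0.0325), with signals of 5961 and 3497. Each rests on 1 inhibitor array per siRNA, and the FOS signal of 96.9 is near the filter signal of 79.3. No group had enough arrays to look for a single outlying one.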

How the results depend on the processing

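FOS and EGR1 kept their inhibitor calls under every alternative that could be fitted, as FOSL1, JUNB and EGR3 did for the siRNA. EGR1 and JUND have no probe set without the _x_at and _s_at types and gave no value there. With no filter on low signals, 478 genes were called for the inhibitor in siCtrl cells, 1819 in siCYLD cells and 33 for the interaction, 0 of them members (limma, 4 members at unadjusted p under 0.05). With the mean of probe sets the interaction called 95 genes and 1 member, and gave ATF3 0.23 and JUND 0.080, both of reversed sign. Without the _x_at and _s_at types, the siRNA called 3 members, the inhibitor 3 in siCtrl and 4 in siCYLD cells, and the interaction 134 genes and 1 member, and JUN had 0.15 with the inhibitor in siCtrl cells. With no intensity trend, 1219 genes were called for the siRNA, 35 for the inhibitor in siCtrl cells (2 members), 1055 in siCYLD cells (4 members), 1087 across both and 0 for the interaction (limma, 1480 at unadjusted p under 0.05), with 0 members (3 unadjusted). Leaving out the pair of arrays with conflicting labels gave 1325 genes for the inhibitor across both siRNAs, 1052 for the siRNA with 3 members, and a FOS siRNA difference of 0.50, and the additive fit of all 6 arrays gave FOS 0.28. With the replicate block, 2097 genes were called in siCtrl cells and 723 for the interaction, and 3688 for the siRNA. The titles give only a replicate number. With 2 arrays per untreated group, the same-number correlation of 0.045 cannot decide whether arrays of one number were handled together. Leaving out 1 array at a time gave 294 to 455 interaction genes and 1232 to 2888 inhibitor genes across both siRNAs. It moved the siRNA difference of FOSB from -0.13 to 0.44 and of JUND from -0.094 to 0.0037, the siCtrl inhibitor difference of FOSB from -0.43 to 0.14, and the interaction of FOSB from -0.53 to 0.051 and of JUND from -0.065 to 0.033. None of these reversed values was called.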
